A study of Mus musculus with 4 samples.

Results

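Genes of the oligodendrocyte lineage and of myelin were examined for H3K27ac, the acetyl mark on lysine 27 of histone H3 that accompanies active promoters and enhancers, in cultured neural stem cells from mouse embryos. The 8 genes were Nkx2-2, Myrf, Cspg4, Cnp, Mbp, Mag, Mog and Mobp, out of 34328 protein-coding and lncRNA genes on chromosomes 1 to 19 and X. Peaks were taken when at least 1 base overlapped the RefSeq body of a gene or the 20 kb on either side of it, which is called the window of the gene below. The 8 windows held 111 of the 91557 peaks of the Smchd1-deleted culture and 79 of the 63613 peaks of the control culture.

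The study used ChIP-seq, in which DNA bound to an antibody-selected chromatin mark is sequenced, on female neural stem cells made from E14.5 embryos. Smchd1 encodes a protein that binds chromatin and helps to keep the inactive X chromosome silent. The deleted group, titled Smchd1 del/del, had been transduced with the retrovirus MSCV-Cre-puro, put under puromycin after 24 h and collected on day 7, while the control group, titled Smchd1 fl/fl, was left untransduced. Each group was 1 ChIP library with 1 whole-cell-extract input, so no difference below has a replicate check and none has a p-value. Before transduction all cells carried 1 deleted and 1 floxed Smchd1 allele per the growth protocol, and the genotype field of the control ChIP gives the same, against its title. The genotype field of the control input instead gives a homozygous deletion. Cells of both groups carried on their maternal X a mutant Xist allele (deltaA; Xist 129-KO in the genotype field) and had a paternal X from Castaneus, and the strain field gives C57BL/6. Both cultures came from 1 established line that was divided, and deletion, viral transduction and puromycin selection cannot be told apart. The antibody field names trimethylation of the same lysine, against the titles.

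Oligodendrocytes wrap axons of the central nervous system in myelin. They arise from neural stem cells through proliferating precursors, which are marked by the proteoglycan NG2, and a set of transcription factors then turns on the genes of compact myelin as the precursors stop dividing. Neural stem cells in culture can give rise to oligodendrocytes, yet most myelin genes are silent until differentiation. The members are ordered here by these roles: the transcription factors Nkx2-2 and Myrf, the precursor surface protein Cspg4, the early myelin enzyme Cnp, and the myelin membrane proteins Mbp, Mag, Mog and Mobp.

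Promoter sequences show where the peaks of these genes stood relative to the start of transcription. RefSeq promoter windows of 300 bases (250 before and 50 from the start site on, in build GRCm38.p6, which shares its coordinates with mm10) were matched for 6 of the 8 members, all but Mbp and Myrf. Each is written 5′ to 3′ along the gene, and capitals mark bases inside an H3K27ac peak of either list. The first 3 are the promoters that met a peak: Nkx2-2 at chr2:147186353-147186652 on the minus strand, Cspg4 at chr9:56864854-56865153 on the plus strand, and Cnp at chr11:100574689-100574988 on the plus strand.
Nkx2-2: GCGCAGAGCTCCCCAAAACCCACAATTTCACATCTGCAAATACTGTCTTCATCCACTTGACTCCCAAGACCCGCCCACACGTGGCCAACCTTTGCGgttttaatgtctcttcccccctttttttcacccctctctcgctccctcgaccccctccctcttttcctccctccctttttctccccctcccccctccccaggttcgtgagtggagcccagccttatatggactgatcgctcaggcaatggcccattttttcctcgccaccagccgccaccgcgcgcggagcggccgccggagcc
Cspg4: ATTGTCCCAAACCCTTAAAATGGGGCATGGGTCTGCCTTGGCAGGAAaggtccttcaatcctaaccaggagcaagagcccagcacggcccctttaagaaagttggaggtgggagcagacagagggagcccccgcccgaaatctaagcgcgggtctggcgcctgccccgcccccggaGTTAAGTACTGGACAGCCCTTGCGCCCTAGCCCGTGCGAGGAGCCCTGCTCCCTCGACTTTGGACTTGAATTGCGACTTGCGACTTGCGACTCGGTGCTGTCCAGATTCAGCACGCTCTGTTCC
Cnp: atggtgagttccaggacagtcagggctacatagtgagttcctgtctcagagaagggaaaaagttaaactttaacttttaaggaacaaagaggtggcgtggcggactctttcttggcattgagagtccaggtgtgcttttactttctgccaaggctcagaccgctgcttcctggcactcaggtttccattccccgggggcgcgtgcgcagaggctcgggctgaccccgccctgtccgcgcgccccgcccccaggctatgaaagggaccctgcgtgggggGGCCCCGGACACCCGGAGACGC
The other 3 are promoters of myelin membrane proteins that met none and so carry no capitals: Mag at chr7:30914873-30915172 on the minus strand, Mog at chr17:37023349-37023648 on the minus strand, and Mobp at chr9:120149492-120149791 on the plus strand.
Mag: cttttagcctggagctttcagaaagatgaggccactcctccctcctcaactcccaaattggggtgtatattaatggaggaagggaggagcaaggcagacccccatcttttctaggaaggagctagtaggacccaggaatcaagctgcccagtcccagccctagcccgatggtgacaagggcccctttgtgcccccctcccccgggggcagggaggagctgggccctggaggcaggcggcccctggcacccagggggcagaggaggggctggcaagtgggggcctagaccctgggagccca
Mog: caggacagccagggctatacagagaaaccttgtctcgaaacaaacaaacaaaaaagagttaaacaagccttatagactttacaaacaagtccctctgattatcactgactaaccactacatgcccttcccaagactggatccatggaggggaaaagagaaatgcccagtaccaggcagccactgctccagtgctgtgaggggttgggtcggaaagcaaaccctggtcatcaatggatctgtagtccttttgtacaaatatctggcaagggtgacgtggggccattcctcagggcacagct
Mobp: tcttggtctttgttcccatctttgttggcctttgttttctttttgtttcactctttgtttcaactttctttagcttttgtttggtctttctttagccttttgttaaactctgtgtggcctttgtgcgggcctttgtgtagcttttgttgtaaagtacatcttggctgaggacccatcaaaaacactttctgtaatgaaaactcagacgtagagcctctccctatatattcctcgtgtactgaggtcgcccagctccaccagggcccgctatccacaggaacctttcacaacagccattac

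Among the 6 members with a promoter window, Cspg4 was the only member whose start site lay inside a peak, in both lists. Its promoter window had 171 bases in deleted peaks and 117 in control peaks, at both of its ends, and the stretch between them was free of peaks in both lists. At Cnp the nearest peak began 44 bases downstream of the start site in the deleted list and 28 bases downstream in the control list, so that 6 and 22 bases of the window were covered. At Nkx2-2 no peak covered the start site of the promoter window, at position 147186402. This site lies inside the gene model, whose upstream end is at 147195434, and both lists had a peak within 1 kb of that end. The control peak nearest to the start site ended 84 bases downstream of it. At the far upstream end of the window 96 bases lay in a weak deleted peak (fold enrichment 3.53 over the input background) without control overlap. Of the 6 promoters, 2 thus met peaks of both lists and 1 a peak of the deleted list only, against 23.4% and 7.81% of the 26794 promoter windows of all genes, and 0 met a peak of the control list only (1.56% of all). The nearest peak to the start site was 5004 bases away for Mog, 6252 for Mobp and 41054 for Mag in the deleted list, and 4910, 6516 and 42484 in the control list.

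The 3 promoters that met a peak had more CpG dinucleotides than the 3 that met none. Nkx2-2, Cspg4 and Cnp had 17 CpG each and ratios of observed to expected CpG of 0.791, 0.631 and 0.638. Mag had 3, Mog 3 and Mobp 5, with ratios of 0.101, 0.171 and 0.364. Over all genes the median ratio was 0.796 for promoters in a peak of both lists and 0.256 for those in no peak. Nkx2-2 belongs to neither of these classes, since its promoter met a deleted peak only. Base content alone did not separate them, since the Mag promoter had the highest share of G and C of the 6 (63.0%) and the Nkx2-2 promoter had 59.7%.

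Short motifs of lineage factors were searched on both strands of the same windows. The SOX core ACAANG, which is the kind of site that Sox10 reads, occurred in 41.3% of all promoters. It matched 6 times in the Mobp promoter, 2 times in Mag, and 1 time each in Cnp and Mog, and not at all in Nkx2-2 and Cspg4. As many as 6 matches were found in 0.0187% of all promoters, and in the Mobp sequence above each is a ctttgt in its upstream part, which reads as the core on the other strand. The core CTGGNAC of MYRF, the protein made by Myrf, matched 2 times each in Cnp and Mag and 1 time in Mog, and 18.99% of promoters held at least 1 match. The E-box CANNTG, read by Olig and proneural factors, was found in 72.2% of promoters, with 3 matches in Nkx2-2 and 1 each in Cnp and Mag. These matches are descriptions of letters in a window and not of binding.

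Of the 8 members, 7 had at least 1 peak in both lists, 0 had peaks in 1 list only and Mag had none, against 61.2% of all genes with peaks in both. All genes include lncRNA genes, while the members encode proteins, and shares of protein-coding genes alone are not given here. The 21631 protein-coding genes had a median of 3 deleted and 2 control peaks, against 2 and 2 over all genes. Peaks lay over the gene body in both lists at 5 members (43.8% of all genes), and in 1 list only at 0 members (7.47% of all genes for the deleted and 1.39% for the control list). A gene end with a peak at most 1 kb away was found in both lists at 3 members (38.7%), in the deleted list only at Myrf (6.65%) and in the control list only at 0 members (1.44%). The deleted list had more peaks than the control list at 5 members, fewer at 1 and equal numbers at 2, while 47.7% of all genes had more and 8.75% fewer. With the deleted list cut to the length of the control list, 3 members had more deleted peaks, and the order turned at Mbp (16 deleted against 20 control) and Cnp (9 against 10) and went from equal to 1 against 2 at Mobp. In sum 1.41 deleted peaks were listed per control peak (95% interval 1.04 to 1.90), close to the 1.44 of the whole lists. The filtered ChIP depth was 54194233 tags in deleted and 42277672 tags in control cells, and the part of depth in the numbers of peaks was not tested. Intervals here are exact binomial ones and cover counting error only.

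**Figure D1:**
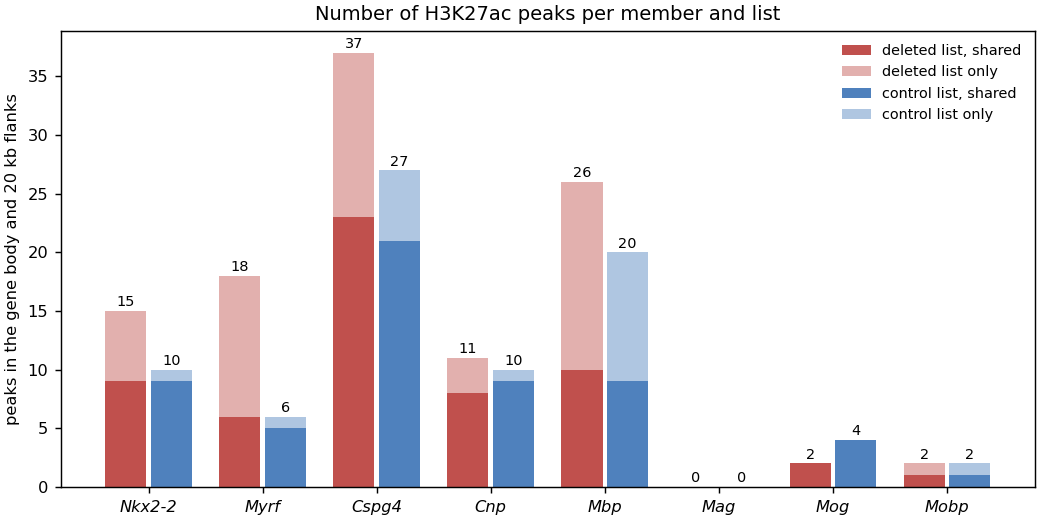
Number of H3K27ac peaks in the window of each member (gene body and 20 kb on both sides), for the deleted list (red) and the control list (blue), with 1 library each. Full colour marks peaks that overlap a peak of the other list and pale colour those that do not. Cspg4 has the most peaks in both lists (37 and 27) and Mag has 0.

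Of the 111 deleted peaks 52 overlapped no control peak, or 46.8% (37.3 to 56.6), against 50.6% of the whole deleted list. Of the 79 control peaks 21 overlapped no deleted peak, or 26.6% (17.3 to 37.7), against 24.3% of the whole control list. Peaks that lay in 1 list only were weaker and narrower in the median than shared ones, with overlapping ranges. Their median fold enrichment was 3.36 (deleted) and 3.63 (control), against 4.37 and 4.42 for shared peaks, and their median width was 254 and 249 bases against 548 and 419. The whole lists had the same order, with median fold enrichments of 3.19 against 4.53 (deleted) and 3.43 against 4.44 (control). At a fold enrichment of at least 5, 0 of 19 control peaks and 3 of 28 deleted peaks of the windows were without overlap, against 1.28% and 4.17% in the whole lists. The strongest of the 3 lay over the Nkx2-2 gene model, upstream of the start site used above, at chr2:147188501-147188871 (5.54). The others were a peak inside Dnajc7 in the Cnp window at chr11:100609869-100610242 (5.37) and a peak inside Mbp at chr18:82549698-82550101 (5.04). All 3 stood just above that limit.

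Nkx2-2 (chr2:147176485-147195434), a homeodomain factor of ventral progenitors that promotes oligodendrocyte differentiation, carried the strongest acetylation among the members. The window contained 15 deleted peaks, 13 of them over the gene, and 10 control peaks, all over the gene. The 2 strongest stood just downstream of the start site. The first, at chr2:147185317-147186117 in the deleted list, had a fold enrichment of 13.6, more than 99.5% of the deleted list, and its control counterpart at chr2:147185254-147186318 had 11. The second, at chr2:147183679-147185184 and chr2:147183744-147185151, had 13.3 and 12.3, with summits 13 bases apart. Both lists thus placed their 2 highest peaks in the same stretch. All other peaks of the window were at 7.26 or lower.

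Around them lay weaker peaks on both sides of the Nkx2-2 start site, and both lists had a further group near the upper end of the gene model. Runs of peaks separated by gaps of at most 1 kb spanned 6.18 kb with 7 peaks in the deleted list and 7.31 kb with 8 peaks in the control list. Of the Nkx2-2 peaks, 6 deleted and 1 control peak were list-only, and the median fold enrichment was 4.53 and 5.14. The lncRNA Nkx2-2os overlaps the gene, and 11 deleted and 7 control peaks lay over it, so that these peaks cannot be assigned to either transcript.

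Cspg4 (chr9:56865104-56899870), which encodes the NG2 proteoglycan of oligodendrocyte precursors and pericytes, had the widest acetylated region. Its window held 37 deleted and 27 control peaks, more than 98.7% and 98.5% of protein-coding genes. Deleted peaks covered 22.4 kb, or 29.9%, of the window, and control peaks 19.4 kb, or 26.0%. They formed a nearly closed run with gaps of at most 1 kb, from chr9:56862930-56886197 with 21 peaks in the deleted list and chr9:56864014-56885340 with 17 peaks in the control list. The run spanned 23.3 kb and 21.3 kb. Of 53079 such runs in the deleted list 13 were as long or longer, itself included, and of 37908 in the control list 8 were.

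The run began just upstream of the Cspg4 start site and ended inside the gene, and scattered peaks of at most 5.88 lay over the rest of the gene. The strongest deleted peak was at chr9:56879829-56881275 (10.6), with its summit 15730 bases downstream of the start site, and the control peak over it had 7.17. The strongest control peak was the one that spans the start site, chr9:56865063-56868502 (8.60), 3440 bases wide, and the highest deleted peak that overlaps it had 9.07. The 2 lists therefore differed in which of these peaks ranked first. All 17 control peaks of the run overlapped a deleted peak, and 18 of the 21 deleted peaks of the run overlapped a control peak. Over the whole window 37.8% of deleted and 22.2% of control peaks were list-only, against 50.6% and 24.3% of the whole lists. Of the bases covered in either list 62.6% were covered in both, against 43.1% over the whole lists.

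The flanking genes of Cspg4 added little. Over Odf3l1 there were 4 deleted and 4 control peaks, none above 3.86, and over Snx33, a sorting nexin gene, there were 3 deleted peaks (2.52 to 3.53) and no control peak. Cspg4 is also a gene of pericytes. Of 6 pericyte and fibroblast markers, both lists had peaks at 1, only the deleted list at 3, and neither at 2. Over all genes these shares were 61.2%, 7.47% and 30.1%, and no test was made of these markers. The pericyte genes Pdgfrb and Rgs5 had 1 and 2 deleted peaks (highest 3.33 and 4.20) and no control peak, while the collagen gene Col1a1 had 14 deleted and 9 control peaks (highest 5.37 and 4.84).

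Cnp (chr11:100574909-100591875) encodes the cyclic nucleotide phosphodiesterase of oligodendrocytes and is active early in the lineage. In both lists peaks began just downstream of its start site and lay over its first part. Its window held 11 deleted and 10 control peaks, and 8 deleted and 9 control peaks overlapped a peak of the other list. The peak next to the start site, deleted at chr11:100574983-100575623 and control at chr11:100574967-100575960, had fold enrichments of 5.71 and 6.66. A second, at chr11:100577424-100578498 and chr11:100577981-100578408, had 6.55 and 5.45, with summits 74 bases apart. The first of these ranked highest in the control list and the second in the deleted list.

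Another acetylated place of Cnp, at chr11:100581227-100582539 in the deleted list (6.21), met 2 control peaks of 4.40 and 4.64. It lay within 1 kb of the end of Dnajc7, a co-chaperone gene that overlaps the upper part of Cnp. Dnajc7 itself held 5 deleted and 3 control peaks of the window. None of the Cnp peaks was above the 88.3th percentile of its list, so acetylation was moderate there beside Nkx2-2 and Cspg4.

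**Figure D2:**
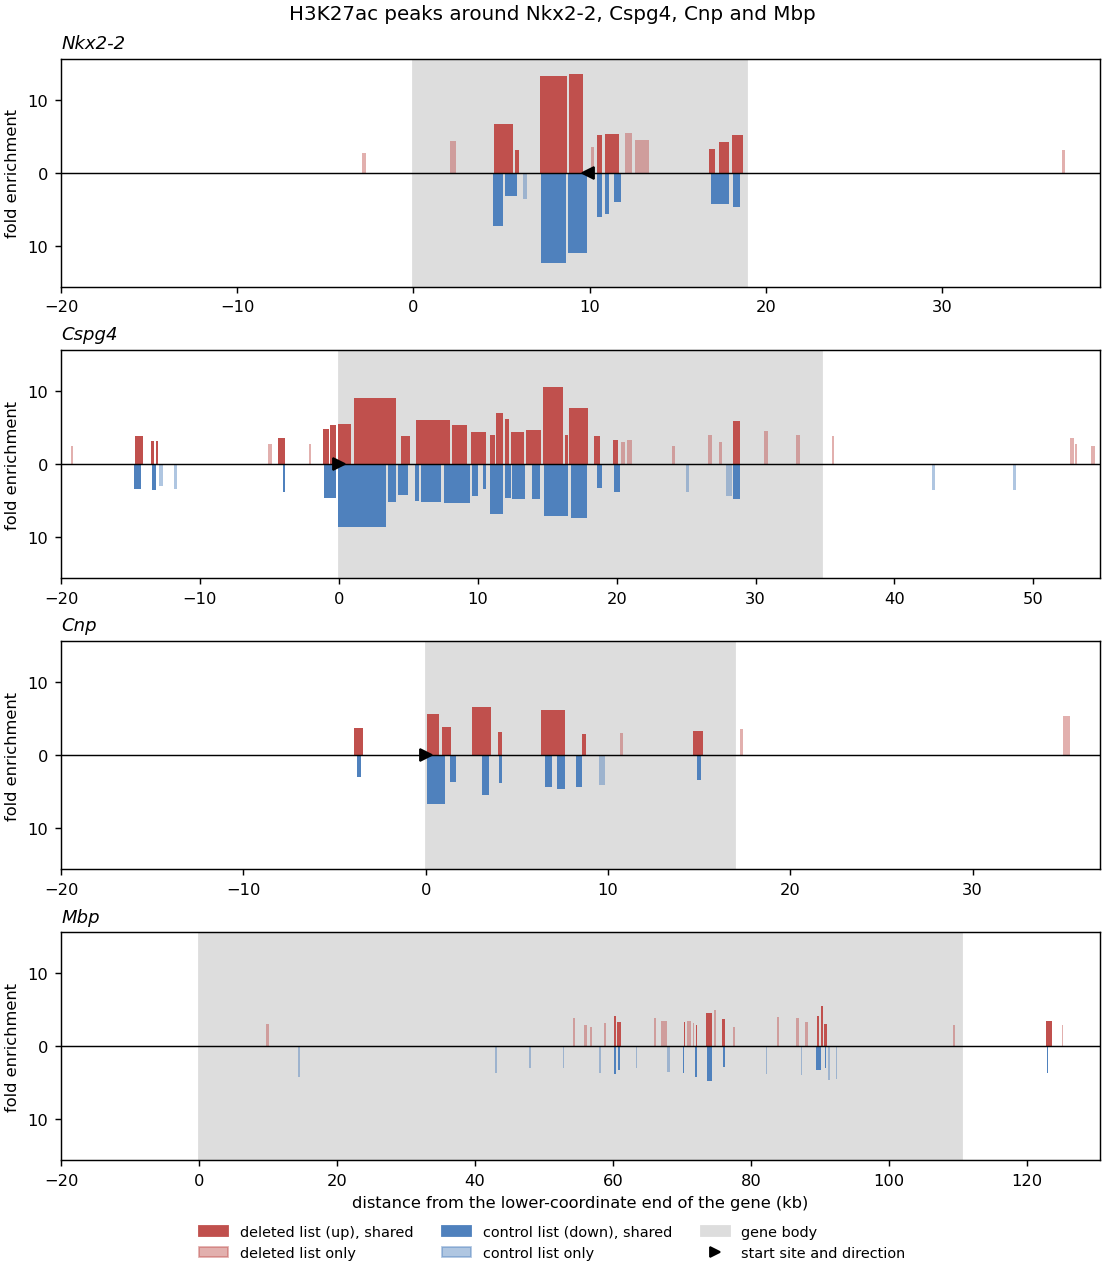
Peaks in the windows of Nkx2-2, Cspg4, Cnp and Mbp by distance in kb from the lower-coordinate end of the gene, with height the fold enrichment over input. Deleted peaks point up and control peaks down, pale peaks are list-only, grey is the gene body and arrowheads mark start sites. Cspg4 has a nearly closed run of peaks in both lists, and the peaks of Mbp reach at most 5.50 and are mostly not matched between the lists.

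Mbp (chr18:82475091-82585637) encodes myelin basic protein, which compacts the myelin sheath. Its peaks were many, and none of them ranked among the strongest of its list. Its window held 26 deleted and 20 control peaks, with median fold enrichments of 3.44 and 3.63, against 3.53 and 4.04 over the whole lists. The maxima were 5.50 (percentile 82.8 of the deleted list) and 4.84 (percentile 68.1 of the control list), and the lowest were 2.57 and 2.83. No Mbp peak lay within 1 kb of an end of the gene model in either list. No start site was matched for Mbp, so this does not cover a start inside the gene model. Between 50 and 93 kb from the lower-coordinate end lay 22 of the 24 deleted and 16 of the 19 control peaks over the gene body, among them all that were shared. The limits of this stretch were set from these same peaks, so it only describes where they lay.

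By covered bases the lists matched least at Mbp among the 7 members with peaks. Of the control peaks 11 of 20 were list-only, or 55.0% (31.5 to 76.9), against 24.3% of the whole list and 33.6% of control peaks under a fold enrichment of 5. Of the deleted peaks 16 of 26 were list-only, or 61.5% (40.6 to 79.8), against 50.6% and, under a fold enrichment of 5, 62.9%. Of the bases covered in either list 18.7% were covered in both. Mbp alone supplied 11 of the 21 control-only peaks of the members, and without it 10 of 59 control peaks, or 16.9% (8.44 to 29.0), were control-only. The lncRNA Gm52337 lies inside Mbp and held 6 deleted and 6 control peaks, with the strongest deleted peak of Mbp (5.50) among them.

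Myrf (chr19:10208271-10240777) encodes a membrane-bound transcription factor that is required for myelin gene expression. In its window lay 18 deleted and only 6 control peaks. Their ratio of 3.00 has an interval of 1.14 to 9.23, which includes the 1.44 of the whole lists. This ratio was smaller with 50 kb flanks (42 deleted and 28 control), among peaks enriched at least 5 times (3 and 2) and in lists of equal length (11 and 6). It was as large or larger with 5 kb flanks (6 and 2), over the gene body alone (4 and 1) and at a −log10 q of at least 5 (7 and 2). Most of the peaks in the window were not over Myrf. The strongest, at chr19:10203087-10204494 among deleted (11.6) and chr19:10202954-10204685 among control peaks (10.5), covered neighbouring ends of Fen1, a flap endonuclease gene of DNA replication, and Tmem258, which encodes a subunit of the oligosaccharyltransferase complex. Over Fads1, a fatty acid desaturase gene, there were 7 deleted and 2 control peaks, and over Dagla, a diacylglycerol lipase gene, 5 and 2.

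Over the Myrf gene itself the 2 lists shared no peak. The deleted list had 4 weak peaks there (2.52, 3.86, 3.36 and 3.36), all with summits within 3371 bases of the lower-coordinate end, and none overlapped a control peak. The control list had 1 (3.43), at chr19:10229465-10229805, which overlapped no deleted peak. With the Myrf window left out, 93 deleted and 73 control peaks remained in the sum over the members, or 1.27 to 1 (0.928 to 1.76).

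Mag (chr7:30899175-30914922), the myelin-associated glycoprotein on the inner face of the sheath, had 0 peaks in both lists, as did 30.1% of all genes. The nearest deleted peak was 41054 bases from the gene (5.71) and the nearest control peak 42484 bases (4.50). An absent peak says that no interval passed the authors' threshold at this depth.

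Mog (chr17:37010740-37023398), which encodes the glycoprotein on the outer face of myelin, had no peak over its body. In its window lay 2 acetylated places, which both lists held. The first was upstream of the start site, at chr17:37028402-37029427 in the deleted list (6.71). There the control list had 3 shorter peaks, the middle one at chr17:37028776-37029010 (7.00). The summits of this deleted and this middle control peak were 1 base apart, at positions -5474 and -5475 from the start site. The other place lay inside the neighbouring Zfp57, a zinc-finger gene that protects genomic imprints, at chr17:37002494-37003150 (7.22) and chr17:37002485-37002917 (6.46). Mog thus had 4 control against 2 deleted peaks over the same 2 places.

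Mobp (chr9:120149742-120181488), a basic protein of compact myelin, also had no peak over its body. The 1 place shared by both lists was upstream of the start site, at chr9:120142293-120143490 (4.53) and chr9:120142565-120143226 (4.04), with summits at -6834 and -7037. Each list had 1 further peak that the other lacked. The deleted one was at the end of the lncRNA Gm5922 (3.02), and the control one lay beyond the far end of the gene (4.44).

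**Figure D3:**
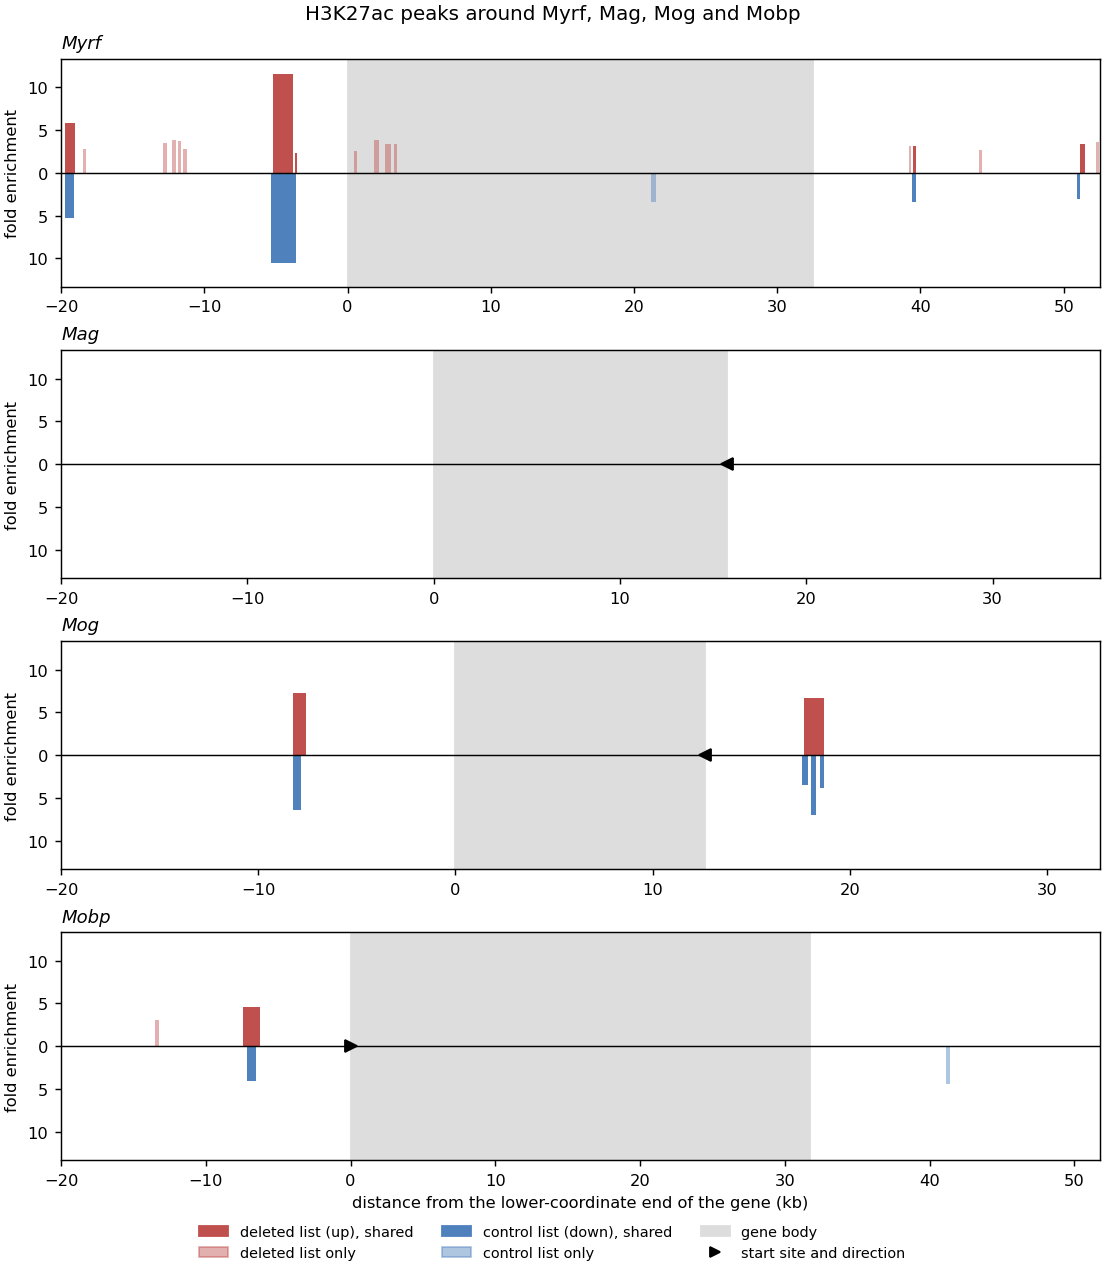
Peaks in the windows of Myrf, Mag, Mog and Mobp, drawn as fold enrichment against distance in kb from the lower-coordinate end of the gene, deleted list up and control list down. Pale peaks are list-only, grey is the gene body and arrowheads mark start sites where the promoter table gives one. Mag has no peak, and no peak of both lists lies over the body of any of these 4 genes.

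The edge of the 20 kb window fell among peaks. Summed over the members, 11 deleted and 3 control peaks lay 15 to 20 kb from the gene and 16 and 17 lay 20 to 25 kb from it. The first peak outside the Mobp window, 20277 bases from the gene for deleted peaks (8.90) and 20498 bases for control peaks (7.67), was stronger than any inside it. It lay in the body of Rpsa, a ribosomal protein gene. The first peaks outside the Myrf window were 20340 and 20542 bases away (3.36 and 3.60).

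Neighbouring genes shared much of this acetylation. Of the 111 deleted peaks 54 lay over a member alone, 19 over a member and another gene, 29 over other genes alone and 9 over none. Of the 79 control peaks these numbers were 42, 16, 12 and 9. The ratio of deleted to control peaks was 1.26 (0.879 to 1.81) over the bodies and 1.81 (1.04 to 3.25) in the flanks, intervals that overlap. Summits of peaks that overlapped 1 to 1 between the lists lay a median of 106 bases apart over 33 pairs in the windows, and 66 bases over 35969 pairs in all.

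Other genes of the lineage, 48 in a list of early factors and receptors, myelin genes and brakes on differentiation, were counted in the same way. Both lists had peaks at 34, the deleted list alone at 6 and the control list alone at 1, against 61.2%, 7.47% and 1.21% of all genes, and 7 had none. The median gene of this list had 6 deleted and 4 control peaks, fewer than the median member (13 and 8). Over all genes the medians were 2 and 2, and over protein-coding genes 3 and 2. No test was made of this list.

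Both lists had peaks at 13 of 19 early factors and receptors, 17 of 24 myelin proteins and lipid enzymes, and 4 of 5 brakes. Over the gene body in both lists these numbers were 12, 11 and 4, where the share of all genes is 43.8%. The highest fold enrichments were at the same 5 genes in both lists. Olig2 (20.7 deleted, 22.4 control) and Olig1 (19.98 and 20.2) encode the factors that specify the lineage. Tcf7l2 (17.3 and 15.1) is an effector of Wnt signalling that acts in differentiation. Qk (17.0 and 15.1) encodes an RNA-binding protein of myelin transcripts, and Sox6 (17.0 and 15.5) a factor that holds precursors back.

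The genes with peaks in the deleted list only had none above 4.37. By highest fold enrichment they were led by Cldn11, a tight-junction protein of myelin (2 peaks, 4.37), the homeodomain factor gene Nkx6-2 (1 peak, 4.03), the zinc-finger factor gene Zfp488 (6 peaks, 4.03), Gpr17, a receptor of committed precursors (2 peaks, 3.53), and Ugt8a, which makes galactolipids of myelin (1 peak, 3.36). Klk6, a protease gene of mature oligodendrocytes, had the 1 window with a peak in the control list only (3.80).

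**Figure D4:**
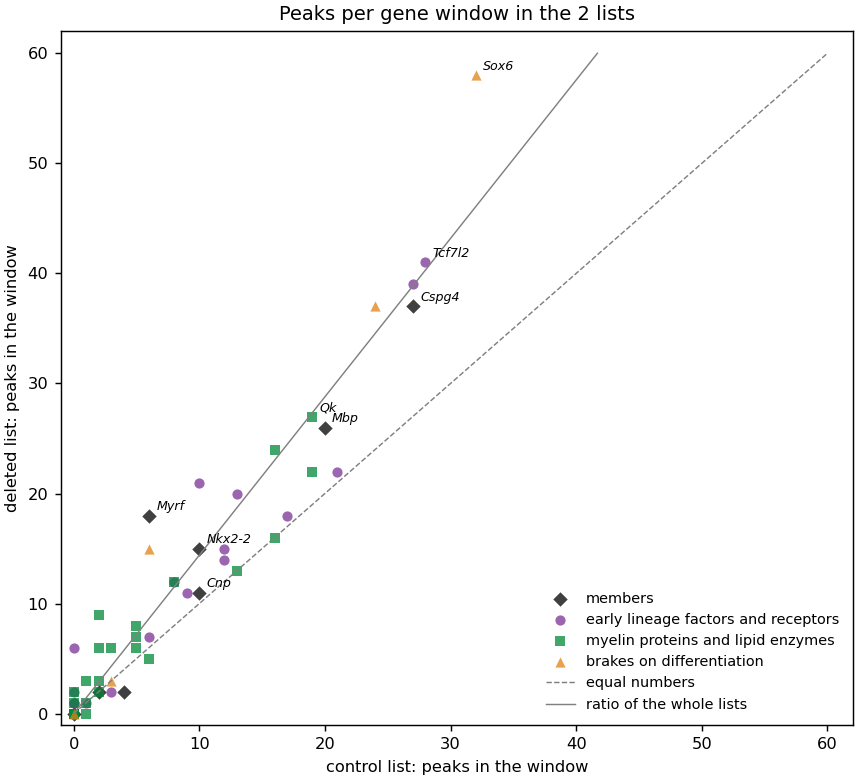
Peaks per window in the deleted list (vertical) against the control list (horizontal) for the 8 members (diamonds) and 48 other genes of the lineage; points with equal counts overlap, most of them near 0. The dashed line marks equal numbers and the solid line the ratio of the whole lists (1.44). Myrf (18 and 6) lies above the solid line and Mog (2 and 4) below the dashed one.

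The labelled cell type was checked against marker genes. Peaks over the gene body in both lists were found at 7 of 7 neural stem cell markers, 5 of 6 astrocyte markers, 2 of 7 neuron markers, 2 of 6 microglia markers, 2 of 5 endothelial markers, 1 of 6 pericyte and fibroblast markers, 5 of 6 Schwann cell markers and 0 of 2 keratinocyte markers, against 43.8% of all genes. The Schwann cell markers with body peaks in both lists were Pmp22, Prx, Egr2, Pou3f1 and Ngfr, and the part of such cells in the members' peaks was not tested. In a bulk culture fewer cells with a mark and less of the mark per cell cannot be told apart, so the part of more differentiated cells in these peaks was not tested.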

How the data were processed

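H3K27ac ChIP-seq libraries of 1 Smchd1-deleted and 1 control culture, each with 1 input, were grouped by sample title. The submitters' processing notes name Bowtie 0.12.9 and mm10. Per the file headers, MACS2 2.1.0.20140616 called narrow peaks of each ChIP against the input of that culture (q-value at most 0.05), down-sampled the larger library and kept 1 tag at each position. In the deposited lists stand the position, pileup signal at the summit, −log10 p-value and q-value, and fold enrichment, a ratio to the local input that is not scaled between cultures. Tags were 80 bases, and the inputs kept 77101643 and 80601280 tags, per the file headers.

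Peaks on chromosomes 1 to 19 and X were intersected with RefSeq GRCm38.p6 gene bodies extended by 20 kb, in Python 3.11.15 with pandas 2.3.3 and scipy 1.17.1. A peak is shared when 1 base overlaps the other list. Intervals are exact Clopper-Pearson ones at 95%. Counting was tested on simulated intervals. All 8 members are named. Of other lineage genes, those named have the 5 highest fold enrichments per list or, up to 5 per list, peaks in 1 list only. Members and lists were chosen with earlier results of these data known. The tables of runs, of list-only peaks by strength, of summit distances and of the stretch in Mbp were added after the values were seen.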

Additional observations from a re-analysis of the deposited data

How the results depend on the processing

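No paired analysis was possible because each group has 1 library, so no replicate could be left out either. Alternatives were flanks of 0, 5 and 50 kb, a fold enrichment or −log10 q of at least 5, lists of equal length and, for overlap, at least 50% of the peak covered. In lists of equal length the ratio of deleted to control peaks in the windows was 1.01, where the cut fixes the whole lists at 1. There 35.0% of deleted peaks were list-only, against 38.3% of the whole deleted list so cut, and 3 members had more deleted peaks. At a fold enrichment of at least 5, 35.7% of deleted and 0% of control peaks were list-only, with both lists filtered (26.9% and 19.04% of the whole lists). With 50% cover 58.6% of deleted peaks were list-only, against 60.3% of the whole deleted list. The other 32 values for the members as a group or the other lineage genes, and 36 of 38 values for single members, stayed within the interval of the value given, or within 1.5 times for counts. This is a loose check, since the settings reuse the same peaks and the single-member intervals are wide. For the deleted share of peaks they ran from 44.8 to 70.1% at Cspg4 and from 6.76 to 93.2% at Mobp. Members with peaks in both lists numbered 5 to 8. The part of depth in which peaks were called was not tested, and with 1 library per group no setting replaces replicates.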

Other observations

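Among the other genes of the lineage some windows were as dense as that of Cspg4. These examples were chosen after their values were seen. Sox10, the factor that activates myelin genes with Myrf, had 39 deleted and 27 control peaks, with highest fold enrichments of 9.40 and 9.55. Of these, 10 and 9 lay over the gene body and the rest in the flanks. Sox8 had 22 and 21 (14.6 and 14.7), of which 3 and 2 lay over the gene body. Pdgfra, the growth factor receptor of precursors, had 2 and 3, none above 4.67. Of the myelin genes Pllp (12.9 and 11.5), Plekhb1 (14.6 and 13.7) and Car2 (11.4 and 10.7) had strong peaks in both lists, while Mal, Ermn and Gjb1 had 0 peaks in both. Of the brakes on differentiation Hes5 had 15 and 6 peaks, 2 of them in each list over the gene body, and Id4 had 0.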
